A study of Mus musculus with 6 samples.

Results

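The genes described here encode the subunits of the mitochondrial respiratory chain and the ATP synthase, together with a few factors that share their symbols. They were chosen by annotated symbol, namely those beginning with Nduf, Uqcr, Atp5 or Cox4 to Cox8, with Sdha to Sdhd and Cyc1. Each was represented by its brightest probe over the 6 arrays. The rule used no difference between groups, and it found 88 of the 19057 genes measured: 44 in complex I, 4 in complex II, 8 in complex III, 16 in complex IV and 16 in complex V. Of these, 79 had a mean intensity above the background limit of 138, and the other 9 are given only as not above it. Some symbols do not name a subunit: 8 are Ndufaf assembly factors, Ndufs5-ps is annotated as a pseudogene, and Ndufa4 is now assigned to complex IV.

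The study compared Glis2KD cells, which received a lentiviral short hairpin RNA against Glis2, with Control cells, which received a hairpin against GFP. Cells cut a short hairpin RNA into a small interfering RNA that silences the matching transcript. Glis2 encodes a zinc finger protein whose loss leads to cystic and fibrotic kidney disease. Both groups were immortalized mouse proximal tubular cells on a background written as C56BL/6, harvested on day 7 after infection, with 3 arrays each. The labels give no animal age or sex, do not say whether 1 or several hairpin sequences, clones or pools were used, and do not state that replicates were separate cultures. The p-values therefore reflect the spread among these arrays alone, which could be purely technical. Lower Glis2, other actions of the hairpin and differences between the infected populations cannot be told apart. In such bulk samples fewer cells of a type and less RNA per cell cannot be told apart either.

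The respiratory chain sits in the inner mitochondrial membrane. Complex I takes electrons from NADH and complex II takes them from succinate, coenzyme Q carries them to complex III, and cytochrome c carries them on to complex IV, which reduces oxygen. Complexes I, III and IV pump protons, and the ATP synthase, complex V, lets them flow back through a rotating ring of c subunits to make ATP. In the kidney, proximal tubules are rich in mitochondria and draw most of their ATP from this chain to reabsorb salt, glucose and amino acids. Most of its subunits are encoded in the nucleus, on many chromosomes, and the factors NRF1, NRF2 (an ETS family protein) and YY1 are known regulators of many of these genes.

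The promoters of the genes were read from RefSeq windows of assembly GRCm38.p6, which run from 250 bases before to 50 bases after the gene's start. For 72 of the 88 genes 77 windows were found, and a gene was counted where any of its windows held the letters. The consensus letters of an NRF1 site stood on either strand in 18 of these 72 genes (25%), against 7.82% of the 15237 genes on the array with a window. The ETS letters CCGGAAG stood in 18 genes (25%), against 13.8% over the array's genes, and the YY1 letters AAGATGGC in 15.3%, against 3.82%. No motif overlapped another one in these windows. The windows of 4 genes with NRF1 letters follow, with those letters in capitals, because they belong to genes that moved in opposite directions: Atp5g2 (chr15:102670998-102671297, minus strand) and Atp5k (chr5:108434350-108434649, minus strand) were higher in Glis2KD, and Ndufaf5 (chr2:140170396-140170695, plus strand) and Atp5c1 (chr2:10080383-10080682, minus strand) were lower. The letters begin 42 bases before the start in Atp5g2, 50 before it in Atp5k, 16 after it in Ndufaf5 and 17 before it in Atp5c1. A match is a description of the sequence and does not show that a factor is bound.
Atp5g2: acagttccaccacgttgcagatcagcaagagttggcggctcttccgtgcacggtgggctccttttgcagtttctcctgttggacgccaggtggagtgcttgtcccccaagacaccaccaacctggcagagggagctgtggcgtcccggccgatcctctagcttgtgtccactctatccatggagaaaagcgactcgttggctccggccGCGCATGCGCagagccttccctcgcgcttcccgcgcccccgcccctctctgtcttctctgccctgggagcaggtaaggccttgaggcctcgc
Atp5k: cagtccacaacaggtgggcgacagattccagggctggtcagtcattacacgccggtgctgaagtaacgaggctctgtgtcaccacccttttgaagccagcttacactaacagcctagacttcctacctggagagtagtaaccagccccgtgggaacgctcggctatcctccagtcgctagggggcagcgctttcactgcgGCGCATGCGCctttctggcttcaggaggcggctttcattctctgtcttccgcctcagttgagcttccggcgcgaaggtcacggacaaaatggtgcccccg
Ndufaf5: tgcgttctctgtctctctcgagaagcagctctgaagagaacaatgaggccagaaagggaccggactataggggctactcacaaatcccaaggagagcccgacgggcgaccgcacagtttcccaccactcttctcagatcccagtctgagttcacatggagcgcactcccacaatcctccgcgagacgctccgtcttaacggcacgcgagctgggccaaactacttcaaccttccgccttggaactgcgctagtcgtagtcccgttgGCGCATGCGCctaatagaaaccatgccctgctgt
Atp5c1: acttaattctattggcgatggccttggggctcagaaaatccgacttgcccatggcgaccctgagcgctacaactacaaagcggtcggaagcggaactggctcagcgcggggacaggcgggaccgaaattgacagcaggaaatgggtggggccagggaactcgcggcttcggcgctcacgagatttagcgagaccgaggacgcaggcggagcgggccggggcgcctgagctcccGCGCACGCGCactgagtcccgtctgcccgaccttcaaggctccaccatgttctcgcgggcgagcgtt

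The NRF1 letters stood in windows of genes of either direction. Among genes with a window, they were present in 5 of 16 lower in Glis2KD, in 4 of 12 higher in Glis2KD and in 9 of 44 not called. The ETS letters stood in 4, 4 and 10 of these genes, and the YY1 letters in 0, 3 and 8.

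The arrays were alike in scale: their medians differed by at most 0.00029 on the log2 scale, and 39.9% to 40.0% of probes lay above the background limit on each. Arrays correlated at r = 0.995 within groups and 0.978 to 0.980 across groups, as a description over 34885 probes. The Glis2 probe ILMN_1226316 read 169, 161 and 176 in Glis2KD and 278, 234 and 230 in Control, a log2 fold change of -0.55 ± 0.092 (SE, adjusted p = 6.32e-05), or 31.8% below the Control mean. The other Glis2 probe, ILMN_2745305, was 22.0% below it, with 145, 177 and 161 in Glis2KD and 216, 212 and 191 in Control. The submitters state a knockdown above 80%, by a method the labels do not name. These intensities still hold the background, and with the background subtracted the log2 fold change of ILMN_1226316 was -1.27. Few proximal tubule markers were measurable: 3 of 11 markers lay above background, with summed intensities of 3743 to 4030 in Glis2KD and 14167 to 15943 in Control, and Slc34a1, Lrp2, Slc5a2 and Slc22a6 were at background. The water channel Aqp1 read 325, 289 and 479.7 in Glis2KD against 10538, 9162 and 9579.7 in Control, and the brush border peptidase Mme was at least 6.12-fold lower in Glis2KD. Summed epithelial markers, all 5 above background, were 77486 to 79891 in Glis2KD and 55931 to 59335 in Control. That sum is carried by the keratins Krt8 (0.57) and Krt18 (0.40), which were called higher, while the cadherins Cdh1 (-0.38) and Cdh16 (-1.41) were called lower and Epcam was not called. Markers above background numbered 0 of 5 for endothelium, 1 of 4 for leukocytes, 1 of 6 for fibroblasts, 2 of 6 for the distal nephron and 2 of 3 for podocytes. Of these, the podocyte markers Podxl (0.39) and Synpo (0.42) and the leukocyte marker Csf1r (0.44) were called higher in Glis2KD, the fibroblast marker Dcn (-0.98) was called lower, and the distal nephron markers were not called. The part of these marker changes in the changes of the respiratory genes was not tested.

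Respiratory chain and ATP synthase transcripts moved in both directions in Glis2KD cells, by small amounts. By limma with Benjamini-Hochberg adjustment over all genes, 21 of the 88 genes were lower in Glis2KD, 13 were higher and 54 were not called. The called share was 38.6%, against 22.5% of all genes; among the 79 genes above background it was 43.0%, against 43.6% of all genes above background. The share of genes called is thus near the background share for genes of measurable intensity and is not a result about the respiratory genes. Genes lower in Glis2KD made up 11.4% and genes higher in Glis2KD 11.2% of all genes, and 22.1% and 21.5% of those above background. The median log2 fold change of the 88 genes was -0.022, against 0.004 over all genes. Arrays of the groups did not overlap for 40 of the 88 genes, against 32.3% of all genes, and for 38 of the 79 above background, against 52.6% of all genes above background.

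The called genes lower in Glis2KD ran from -1.25 to -0.24 on the log2 scale, with a median of -0.34, and those higher ran from 0.26 to 0.62, with a median of 0.41. Ndufa1 alone passed 1 log2 unit, and 29 of the 34 called genes changed by less than 0.5. The 45 uncalled genes above background lay between -0.24 and 0.30, and with 3 arrays a group changes of that size can go uncalled. These folds are of intensities that include the background, so they understate the change of dim probes. Intensities are given below per array, Glis2KD arrays and Control arrays each in replicate order, and levels of different genes are not compared because probes differ in brightness.

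**Figure D1:**
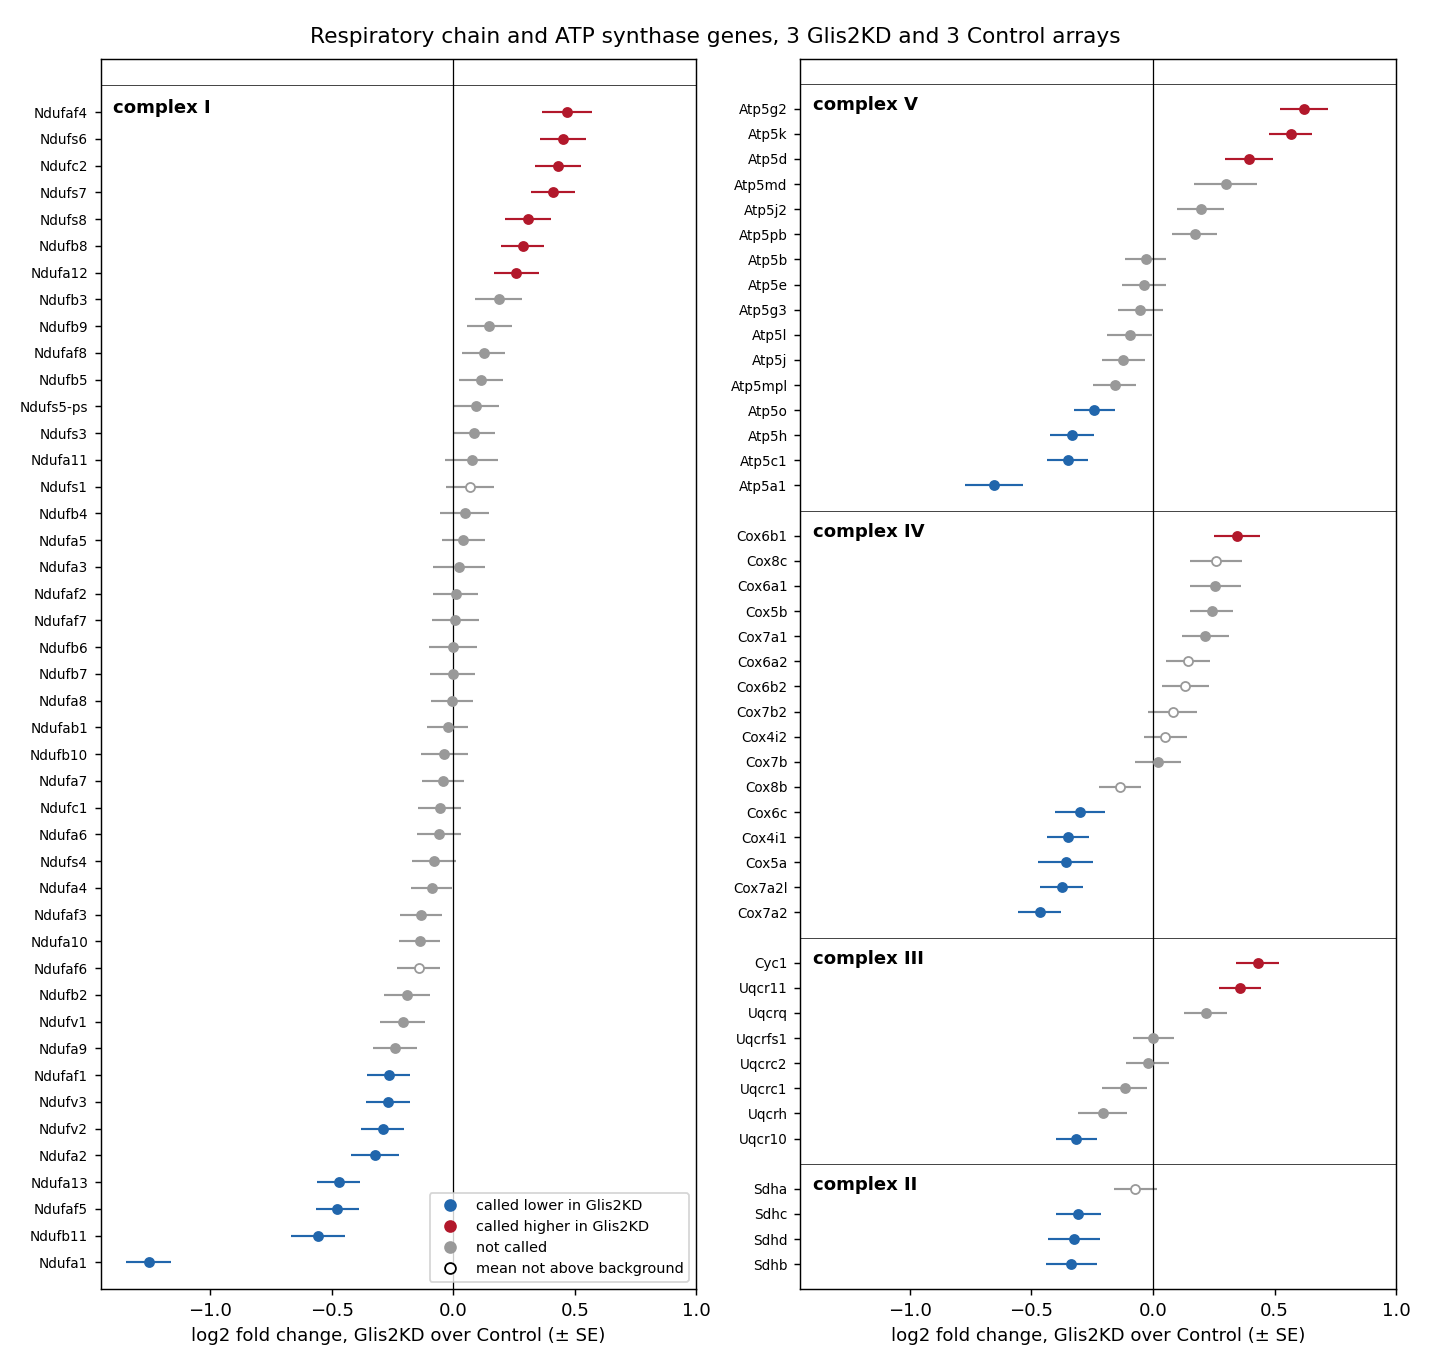
Log2 fold change of Glis2KD over Control with its SE for each of the 88 genes, by complex; blue points were called lower, red higher and grey not called, and open points mark genes not above background. Lower and higher genes occur in each of complexes I, III, IV and V, and complex II holds 3 lower genes and 1 uncalled one.

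In complex I, 8 genes were lower in Glis2KD, 7 were higher and 29 were not called, with a median log2 fold change of -0.0036. Without the assembly factors, Ndufa4 and the pseudogene, the counts were 6 lower, 6 higher and 22 not called. The count of lower genes fell to 4 with the background subtracted and ranged from 5 to 8 with 1 array left out, with 5 without Glis2KD replicate 2 or 3. The genes that lost this call with the background subtracted had no smaller fold changes there: Ndufb11 was -1.18, Ndufa2 -0.33, Ndufaf1 -0.28 and Ndufv3 -0.28.

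Ndufa1, a small membrane-spanning subunit encoded on the X chromosome (probe ILMN_1251370), changed most. It read 3371, 2885 and 3074 in Glis2KD and 6758, 7604 and 7875 in Control. The Glis2KD arrays all lay far below the Control arrays, at 0.420 times Control (log2 fold change -1.25 ± 0.092, SE, n = 3 each, adjusted p = 2.02e-10). Ndufb11, another X-encoded membrane subunit (ILMN_2747885), read 213, 196 and 158 in Glis2KD and 255, 325 and 253 in Control, 0.679 times Control (adjusted p = 0.000442). Its second probe, ILMN_2747886, was also called lower, at -0.28.

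Ndufaf5 is an assembly factor that modifies the subunit Ndufs7 while the complex is built, and the 2 transcripts moved in opposite directions. Ndufaf5 (ILMN_2747677) read 585, 564 and 559.7 in Glis2KD and 728, 821 and 833 in Control (-0.48 ± 0.088, adjusted p = 0.000178). Ndufs7 (ILMN_2688763), which carries the last iron-sulfur cluster before coenzyme Q, read 6713, 6578 and 7133 in Glis2KD and 5219, 4649 and 5534 in Control (0.41 ± 0.090, adjusted p = 0.0012). In neither gene did the groups overlap. The difference between their changes was not itself tested.

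Ndufa13, an accessory subunit also known as Grim19 (ILMN_2649937), was lower: it read 12342, 13252 and 11938 in Glis2KD and 18509.7, 17102 and 16428 in Control (-0.47 ± 0.088, adjusted p = 0.000214). Ndufs6, a zinc-binding accessory subunit needed late in assembly (ILMN_2842572), was higher, with 13073, 13685 and 13218 in Glis2KD and 10366, 8485 and 10506 in Control (0.45 ± 0.094, adjusted p = 0.000664). Its second probe moved the same way, at 0.56. The other genes called higher were the assembly factor Ndufaf4 (0.47), the accessory subunits Ndufc2 (0.43), Ndufb8 (0.28) and Ndufa12 (0.26), and Ndufs8 (0.31), a core iron-sulfur subunit. Called lower were Ndufv2 (-0.29), a core iron-sulfur subunit of the NADH-oxidising end, the accessory subunits Ndufa2 (-0.32) and Ndufv3 (-0.27), and the assembly factor Ndufaf1 (-0.27). The calls of Ndufv2, Ndufs8, Ndufa2, Ndufb8, Ndufaf1, Ndufv3 and Ndufa12 were each lost when some single array was left out.

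By role, 1 of the 6 core subunits of the matrix arm was lower, 2 were higher and 3 were not called. Of the 18 accessory subunits with A, C, S or V symbols, 4 were lower and 3 higher, and of the 10 accessory subunits of the distal membrane arm, with B symbols, 1 was lower and 1 higher. The 8 assembly factors gave 2 lower and 1 higher. No role group of complex I thus moved in 1 direction.

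Probes of 1 gene did not always give the same call. Ndufab1, the mitochondrial acyl carrier protein, was not called by its brightest probe (-0.02), while 2 of its 3 further probes were called higher, at 0.27 and 0.32. Ndufs4, an accessory subunit at the base of the matrix arm, was not called by its brightest probe (-0.08), while 2 of its further probes were called lower, at -0.38 and -0.25. Over the called genes of all complexes, 14 further probes of 12 genes lay above background. All 14 had the sign of the brightest probe, 6 were called the same way and 0 the opposite way. Those not called were of Ndufaf5 (-0.20), Ndufc2 (0.06), Ndufb8 (0.22), Ndufv3 (-0.13), Sdhb (-0.18), Uqcr10 (-0.15) and Atp5o (-0.22 and -0.005).

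Complex II, succinate dehydrogenase, is encoded wholly in the nucleus and also works in the citric acid cycle. Its 3 genes above background were all called lower in Glis2KD, by similar amounts, but these calls were fragile. Sdhb, the iron-sulfur subunit (ILMN_2769065), read 1439, 1727 and 1848 in Glis2KD and 1846, 2408 and 2076 in Control (-0.34 ± 0.11, adjusted p = 0.0221). Sdhc, a membrane anchor (ILMN_2594149), read 3403, 3396 and 2946 in Glis2KD and 4185, 3664 and 4210.5 in Control (-0.31 ± 0.092, adjusted p = 0.0161). Sdhd, the other membrane anchor (ILMN_1239143), read 759, 731 and 742 in Glis2KD and 996, 1086 and 747 in Control (-0.32 ± 0.11, adjusted p = 0.0312).

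The groups did not overlap for Sdhc, but 1 Glis2KD array of Sdhb and 1 Glis2KD array of Sdhd reached above the lowest Control array. Leaving out any 1 array left 1 or 2 of the 3 calls: without Glis2KD replicate 2 there were 2, and without any other array there was 1. No call remained with the background subtracted, with normexp correction or when all probes of a gene were averaged. With the background subtracted the fold changes did not shrink, at -0.36 for Sdhb, -0.32 for Sdhc and -0.37 for Sdhd. Sdhd has a single probe, so averaging left its own values unchanged and only the fit over all genes differed. Sdhb and Sdhc have further probes, and that of Sdhb above background gave -0.18 and was not called. The further probe of Sdhc was not above background. Sdha, the flavoprotein subunit, was not above background, with 104, 109.9 and 106 in Glis2KD and 109.8, 123 and 105 in Control. Of the 4 assembly factors of this complex, Sdhaf3 (-0.37) and Sdhaf4 (-0.41) were called lower, and Sdhaf1 (0.30) and Sdhaf2 (0.43) were called higher.

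In complex III, 1 of 8 genes was lower in Glis2KD, 2 were higher and 5 were not called. Cyc1 encodes cytochrome c1, the heme protein that hands electrons to cytochrome c (ILMN_1251771). It read 4908, 4659 and 4746 in Glis2KD and 3434, 3372 and 3829 in Control, 1.35 times Control (0.43 ± 0.087, adjusted p = 0.000524). The small accessory subunit Uqcr11 (ILMN_2871881) was also higher, with 14454, 13868 and 14129 in Glis2KD and 11669, 10532 and 10920.2 in Control (0.36 ± 0.086, adjusted p = 0.00255).

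Uqcr10, another small accessory subunit (ILMN_2636384), was lower, with 16980.2, 16269.7 and 15628 in Glis2KD and 20653, 19770.4 and 20374 in Control (-0.32 ± 0.085, adjusted p = 0.0072). Its second probe, ILMN_3142224, gave -0.15 and was not called. In none of these 3 genes did the groups overlap. The partner of Cyc1 in catalysis, the Rieske protein Uqcrfs1, was barely above background, at 142 ± 8.19 in Glis2KD and 142 ± 3.31 in Control (SD, n = 3 each). The core proteins Uqcrc1 (-0.12) and Uqcrc2 (-0.02) were not called.

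In complex IV, cytochrome c oxidase, 5 of 16 genes were lower in Glis2KD, 1 was higher and 10 were not called. The split followed what was measurable: of the 8 subunits found in most tissues 4 were lower and 1 was higher, while the 7 isoforms known from muscle, lung or testis gave 0 calls and only Cox7a1 among them lay above background. The fifth lower gene was Cox7a2l, known as a factor that joins complexes III and IV into supercomplexes. The count of lower genes was 3 with the background subtracted, with normexp correction and when all probes of a gene were averaged. Cox5a and Cox6c, whose calls were lost on averaging, have a single probe each, so only the fit over all genes differed. Their calls were also lost with the background subtracted, where their fold changes stayed at -0.36 and -0.30. The count also varied with the arrays used. The count of lower genes ranged from 3 to 5 with 1 array left out, with 3 without Control replicate 2 or Glis2KD replicate 1.

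Cox7a2, a small subunit at the dimer interface (ILMN_2733698), read 429.6, 384 and 426 in Glis2KD and 589, 584 and 538 in Control (-0.47 ± 0.088, adjusted p = 0.00024). Cox7a2l (ILMN_2888713) read 7179, 7056 and 7477 in Glis2KD and 8761, 9206 and 10233 in Control (-0.37 ± 0.088, adjusted p = 0.00235). Cox4i1, the regulatory subunit that is usual outside the lung (ILMN_2600274), read 10939, 11023 and 11259 in Glis2KD and 14732, 13226 and 14412 in Control (-0.35 ± 0.086, adjusted p = 0.00334). All Glis2KD arrays of these 3 genes lay below all Control arrays, and their calls held with each single array left out. Cox4i2, the lung isoform, was not above background.

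Cox6b1, which faces the intermembrane space and links the monomers of the enzyme (ILMN_1254971), was the gene called higher. It read 13218, 11767 and 12803 in Glis2KD and 9434, 9087 and 11311 in Control (0.35 ± 0.095, adjusted p = 0.00851), and its second probe was called higher too, at 0.35. Without Control replicate 2 the fold change of Cox6b1 was 0.28 (adjusted p = 0.0612). Cox6c, a single-span membrane subunit (ILMN_2589039), read 9225, 9254 and 9692 in Glis2KD and 10628, 14099 and 10329.8 in Control (-0.30 ± 0.10, adjusted p = 0.0369). The groups of Cox6c did not overlap, but without Control replicate 2 its fold change was -0.16 (adjusted p = 0.332), and leaving out any Glis2KD array also ended its call, with adjusted p of 0.0604 to 0.103. Cox5a was called lower (-0.36) with overlapping groups, while its partner Cox5b was not called by its brightest probe (0.24, adjusted p = 0.052) and was called higher by a second one (0.56).

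In complex V, the ATP synthase, 4 of 16 genes were lower in Glis2KD, 3 were higher and 9 were not called. Of the 5 subunits of the F1 head and central stalk, Atp5a1 and Atp5c1 were lower and Atp5d was higher. In the peripheral stalk, 2 of 4 subunits were lower and 0 higher, and among the small membrane subunits 1 of 5 was higher.

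Atp5a1 encodes the alpha subunit, a part of the head's ring (ILMN_2633229). It read 2028, 2276 and 2874 in Glis2KD and 3823, 4343 and 3110.0 in Control (-0.65 ± 0.12, adjusted p = 0.000169), and its second probe was called lower at -0.25. Atp5c1, the gamma subunit that turns inside the ring (ILMN_1249783), read 10473, 9877 and 10366 in Glis2KD and 13361, 12811 and 12983 in Control (-0.35 ± 0.084, adjusted p = 0.0028). The catalytic beta subunit Atp5b was level in the same arrays, at 45111, 45418 and 43229 in Glis2KD and 45549, 44861 and 46073 in Control, with a log2 fold change of -0.03 and adjusted p = 0.893.

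Atp5d, the delta subunit of the central stalk (ILMN_1254705), was higher, with 8115, 8075 and 8334 in Glis2KD and 5828, 5623 and 7332 in Control (0.39 ± 0.098, adjusted p = 0.00353). Atp5h, subunit d of the peripheral stalk that holds the head still (ILMN_3004441), was lower, with 4453, 4616 and 4150.2 in Glis2KD and 5039, 5834 and 5779 in Control (-0.33 ± 0.090, adjusted p = 0.00779). Atp5o, the stalk's top subunit, was lower at -0.24 (adjusted p = 0.0444), a call that was lost without any 1 of 5 of the 6 arrays. The groups did not overlap for any of these genes.

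The largest increases among the 88 genes were in the membrane part of the ATP synthase. Atp5g2, 1 of the genes for the c subunit of the proton-driven ring (ILMN_2691528), read 3446, 3866 and 3998 in Glis2KD and 2493, 2136 and 2743 in Control, 1.54 times Control (0.62 ± 0.098, adjusted p = 2.76e-05). Atp5k, subunit e, which helps the enzyme form dimers (ILMN_1214830), read 366, 389 and 339 in Glis2KD and 232, 252 and 255 in Control, 1.48 times Control (0.57 ± 0.089, adjusted p = 2.51e-05). Atp5g3, which encodes the same mature c subunit as Atp5g2, was not called, at 34967, 29239 and 36325 in Glis2KD and 34840.5, 34711 and 34184 in Control (-0.05, adjusted p = 0.814).

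**Figure D2:**
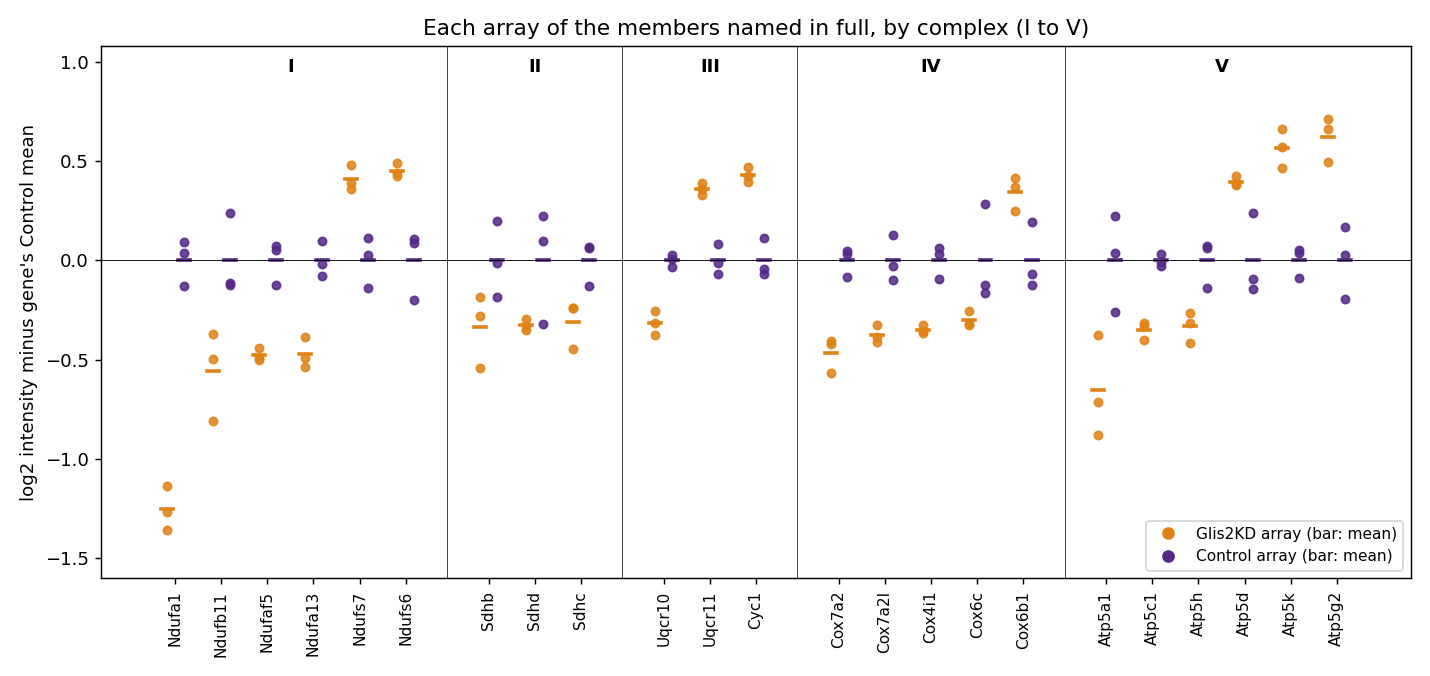
Log2 intensity of each array minus the gene's Control mean for the called genes given array by array, Glis2KD arrays left of Control arrays, with bars at the group means. The groups of Ndufa1, Atp5g2 and Atp5k lie well apart, whereas those of Sdhb and Sdhd overlap.

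The position of the genes on the chromosomes moved with their fold changes. Each gene's log2 fold change was set against the median of its nearest genes above background on its chromosome, up to 25 on each side. This gave up to 50 neighbours, with the respiratory genes left out, and fewer near chromosome ends (33 for Ndufs8, 36 for Ndufv1 and 37 for Atp5g2). Over the 79 genes above background the 2 values correlated at r = 0.72 (Spearman's rho 0.59), against r = 0.31 (rho 0.34) over 9427 other genes above background. All of these share the same 6 arrays, and genes that lie close together share neighbours, so this is a description with no test. Fold changes ran from -1.25 to 0.62 among the respiratory genes and from -5.88 to 4.60 over all genes above background. With spreads so unlike, the 2 r values are not directly comparable. Without the 3 genes on the X chromosome r was 0.63 over 76 genes, and without chromosomes X, 10, 15, 18 and 19, a set chosen after the values were seen, it was 0.49 over 60 genes. All 21 genes called lower had neighbours with a median below 0, against 76.8% of 2080 other genes above background called lower. Of the 13 called higher, 11 (84.6%) had neighbours with a median above 0, against 64.6% of 2028 other genes called higher; the exceptions were Cyc1 (-0.01) and Ndufaf4 (-0.17). At neighbour medians of 0.2 or more in size, a limit chosen after the values were seen, 14 of 17 respiratory genes above background (82.4%) moved the way their neighbours did, against 79.1% of 1310 other genes. The 3 that did not were Ndufv1, Ndufab1 and Uqcrc2, none of them called. Of the 17, 11 were called (64.7%), against 54.4% of the other genes, so at this limit the respiratory genes were near the share over other genes.

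**Figure D3:**
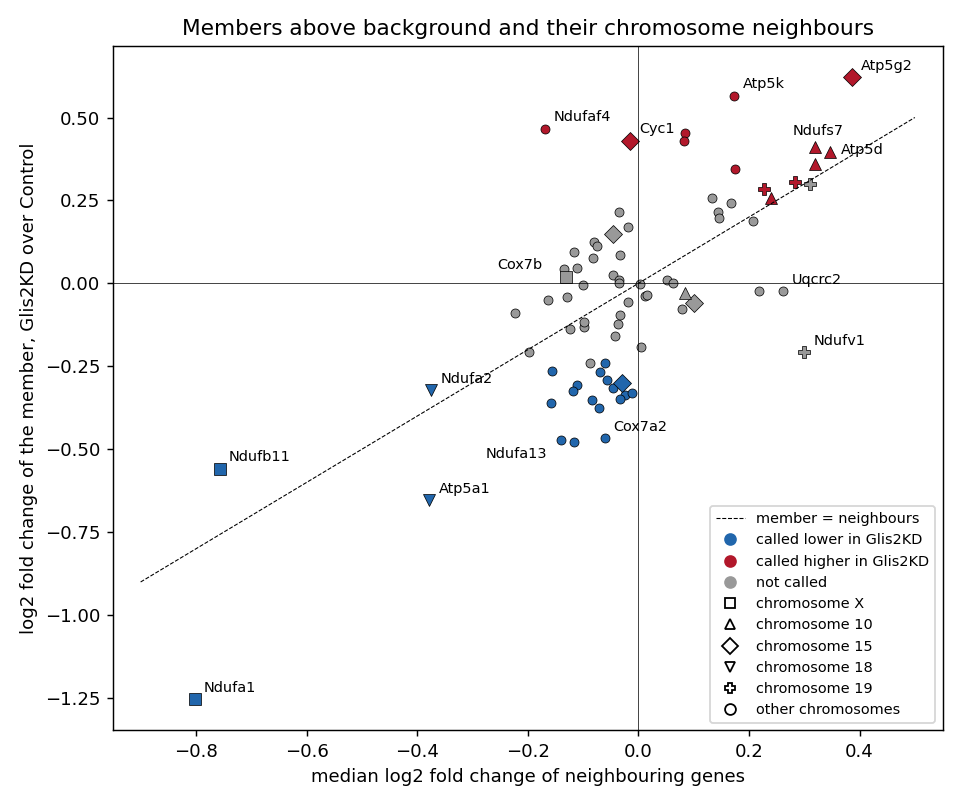
Log2 fold change of each of the 79 genes above background against the median log2 fold change of its chromosome neighbours, with a dashed line where both are equal. Ndufa1 and Ndufb11 lie at the lower left with neighbours near -0.80 and -0.76, 4 of the 5 genes of chromosome 10 lie at the upper right near the line, and Ndufaf4 and Cyc1 rose where their neighbours did not.

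On the X chromosome the neighbours of Ndufa1 had a median of -0.80 and those of Ndufb11 -0.76, and these genes share 30 neighbours. The third X-linked gene, Cox7b, had neighbours at -0.13 and was level, with 392, 407 and 424 in Glis2KD and 349.8, 423 and 439.9 in Control. On chromosome 10, Ndufs7, Uqcr11 and Atp5d lie close together, sharing 37 to 46 of their neighbours, and had neighbours at 0.32, 0.32 and 0.35; the 3 genes belong to complexes I, III and V. They are near 1 region and are not independent of each other. Ndufa12, also on chromosome 10, had neighbours at 0.24, whereas Atp5b, on the same chromosome and not called, had neighbours at 0.09. Both genes on chromosome 18, Atp5a1 and Ndufa2, were lower, with neighbours at -0.38 and -0.37. On chromosome 19, Ndufs8 and Ndufb8 were higher, while Ndufv1, which shares 33 neighbours with Ndufs8, was at -0.21 with neighbours at 0.30. Atp5g2, on chromosome 15, had neighbours at 0.39.

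With each gene's values taken relative to its neighbours and fitted again over 18961 placed genes, 14 of the 88 genes were lower in Glis2KD and 7 were higher, where 14.6% and 14.3% of all placed genes were. Of the 79 genes above background, 13 were lower (16.5%) and 6 were higher (7.59%), against 21.3% and 20.7% of the placed genes above background. The called share of these 79 genes was 24.1%, below the 42.0% of placed genes above background. Of the 21 lower and 13 higher genes, 11 lower and 5 higher were called in both fits. Ndufa1 was -0.48 relative to its neighbours (adjusted p = 0.000259), and Ndufb11 was 0.16 (adjusted p = 0.259), so the direction of Ndufb11 turned. Ndufs7 was 0.10, Atp5d was 0.06, Uqcr11 was 0.02 and Ndufa12 was 0.01 relative to their neighbours, and none was called. Atp5a1 was -0.29 (adjusted p = 0.0812), Ndufa2 was 0.06 (adjusted p = 0.70) and Atp5g2 was 0.22 (adjusted p = 0.0868).

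The genes called in both fits were Ndufa1, Ndufaf5, Ndufa13, Ndufs6, Ndufc2, Ndufaf4, Ndufv3, Sdhb, Cyc1, Uqcr10, Cox7a2, Cox7a2l, Cox4i1, Atp5k, Atp5c1 and Atp5h. Relative to neighbours, Ndufaf4 was 0.62, Cyc1 was 0.46, Atp5k was 0.38, Cox7a2 was -0.38 and Ndufaf5 was -0.36. Calls were gained by Ndufv1 (-0.45), which carries the flavin that first takes electrons from NADH, by the core protein Uqcrc2 (-0.27), and by the accessory subunit Uqcrq (0.26). The counts over 88 genes also hold Cox8b and Cox8c, which were not above background, so their calls are not read as changes of these genes. What moved the neighbouring genes was not tested.

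**Figure D4:**
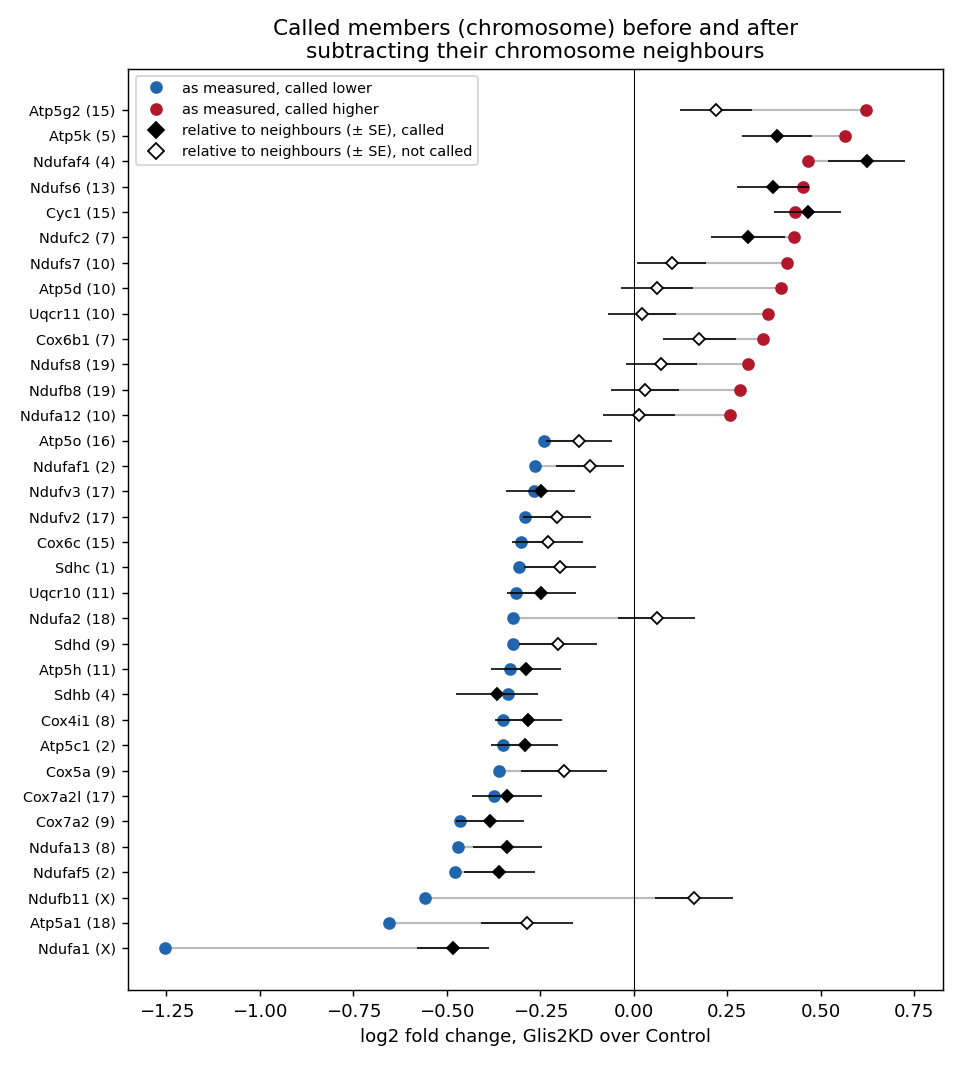
Log2 fold change of the 34 called genes as measured (circles) and relative to up to 50 nearest genes above background (diamonds with SE, filled where called), with the chromosome after each name. Cyc1 and Ndufaf4 keep or gain distance from 0, whereas Ndufs7, Uqcr11, Atp5d and Ndufa12 move close to 0 and Ndufb11 and Ndufa2 cross it.

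Other genes of mitochondrial energy metabolism, taken from lists by function, also moved both ways. Of 40 measured assembly factors of the respiratory complexes, 3 were lower and 8 were higher, with a median log2 fold change of 0.022. Examples are Sdhaf2 (0.43), the copper chaperone Cox19 (0.41) and the ATP synthase factor Tmem70 (0.39). Relative to neighbours, Sdhaf2 was 0.19 and was not called, while Cox19 (0.30) and Tmem70 (0.43) were called. Of 18 electron carriers and enzymes of coenzyme Q synthesis, 4 were lower and 3 were higher. Coq7, the hydroxylase of coenzyme Q synthesis, read 1068, 1177 and 1292 in Glis2KD and 544, 496 and 588 in Control (1.12 ± 0.095, adjusted p = 2.3e-09). The coenzyme Q binding protein Coq10b rose by 0.97, and Gpd2, which passes electrons from glycerol phosphate to coenzyme Q, fell by 0.61. In these lists too, called genes ran both ways. Above background, 30.6% of the assembly factors and 43.8% of the carriers and coenzyme Q enzymes were called, against 43.6% of all genes above background.

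Of 21 regulators of mitochondrial biogenesis, 2 were lower and 5 were higher. The called share of those above background was 41.2%, against 43.6% of all genes above background. The coactivator Pprc1 (0.58) and the mitochondrial DNA helicase Twnk (0.40) were higher, and Tfb1m (-0.55), which methylates mitochondrial ribosomal RNA, was lower. Relative to neighbours, Twnk was 0.16 and was not called, while Pprc1 (0.29) and Tfb1m (-0.44) were called. The factors whose letters were counted in the promoters are named for that reason. As measured, Nrf1 (0.08) and the NRF2 genes Gabpa (-0.003) and Gabpb1 (0.08) were not called, and Yy1 was not above background. Ppargc1a, the coactivator PGC-1alpha, was chosen after its values were seen: it read 104, 129 and 135 in Glis2KD, all under the background limit, and 223, 177 and 137.8 in Control, of which the last was also under it. It was at least 1.27-fold lower in Glis2KD. Of 18 genes of the citric acid cycle and pyruvate dehydrogenase, 4 were lower, with Fh1 at -0.40 and Idh3a at -0.36, and 1 was higher, Ogdh at 0.43. Relative to neighbours, Idh3a was -0.20 and was not called, while Fh1 (-0.33) and Ogdh (0.53) were called. Of 27 genes of import, carriers and chaperones, 4 were lower and 7 were higher, among them Tomm40 (0.80), Timm50 (0.72) and the X-linked ADP/ATP carrier Slc25a5 (-0.70, with neighbours at -0.84). Above background, 33.3% of the citric acid cycle list and 45.8% of the import list were called, against 43.6% of all genes above background.

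Of 15 genes of fatty acid beta-oxidation, 5 were lower and 3 were higher. Among the 13 above background 61.5% were called, against 43.6% of all genes above background. Acaa2, the thiolase of the last step, read 589.9, 579.8 and 464 in Glis2KD and 1661, 1352 and 1508 in Control (-1.47 ± 0.10, adjusted p = 7.45e-11), and it was still -1.16 relative to its neighbours on chromosome 18. Cpt2 (-0.63), which loads fatty acids onto coenzyme A inside the mitochondrion, was lower, and Eci1 (0.45) was higher.

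The mitochondrial genome encodes core subunits of complexes I, III, IV and V, and 8 of its 13 protein genes were named on the array. Of these, 4 were lower in Glis2KD, 1 was higher and 3 were not called, with a median log2 fold change of -0.21. Among the 7 above background 71.4% were called, against 43.6% of all genes above background. ND4, a proton-pumping subunit of complex I, read 30465, 34545 and 30289 in Glis2KD and 37521, 40375 and 38076 in Control (-0.29 ± 0.088, adjusted p = 0.0198). ND4L (-0.54), COX2 (-0.30) and ATP6 (-0.28) were also lower. ND5 was higher (0.51, adjusted p = 0.0171), with 588, 680.4 and 805 in Glis2KD and 570.2, 328 and 599 in Control, so its groups overlapped. These genes are cut from long shared transcripts, so their probes are not independent, and ND1, ND6 and CYTB were not called.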

How the data were processed

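Cy3-labelled total RNA was measured on Illumina mouse bead arrays, per the labels. The deposited values are linear intensities, 1 for each probe on each array. How the authors scaled them is not given in the sources used. The deposited intensities, from 85.4 to 52227, had been brought to 1 distribution without background subtraction. Precision is limited by the number of arrays.

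The platform annotation gave 34885 of the 45281 probes a single symbol, 18 several symbols and 10378 no symbol. A RefSeq gene table of GRCm38.p6 matched 34807 by identifier and gave chromosomes and gene order. The array design's own build is not known here. Intensities were floored at 16 and taken to log2, and the floor changed none of the values as deposited. Where the background mode was subtracted first, values below the mode or barely above it were set to this floor. Each of 19057 genes was represented by its brightest probe. Glis2KD and Control were fitted in R 4.3.3 with limma 3.58.1 (lmFit and eBayes, no block), with Benjamini-Hochberg adjustment over all genes at 0.05; the fit was tested on simulated data. The background limit of 138 lies 3 SD (8.23 each, from the values below the mode) above the mode of the intensities, 114.

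The genes and lists were chosen with earlier results of these data known. Values on every array are given for called genes whose groups did not overlap, up to 6 per complex by smallest p, and for partners and isoforms; up to 3 called genes of each list are named by smallest p. No shared effect of same-numbered arrays was seen: their deviations from their group means correlated at -0.094, -0.039 and -0.038 over 9530 genes. These values cannot show whether cultures or infections were paired by number, which the labels do not state. Alternatives were quantile normalization, median centring, background subtraction, normexp correction with an offset of 50, averaging all probes of a gene, filters on dim genes, eBayes with trend and robust settings, a replicate block, values relative to neighbours, and leaving out each array.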

Additional observations from a re-analysis of the deposited data

How the results depend on the processing

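Of the 34 called genes, 20 kept their call with each of the 6 arrays left out, 15 with the background subtracted, and 10 under all 10 other settings and all 6 omissions: Ndufa1, Ndufaf5, Ndufa13, Cyc1, Uqcr10, Cox7a2, Cox7a2l, Cox4i1, Atp5k and Atp5c1. With the background subtracted 10 genes were lower and 5 higher, in place of 21 and 13. Lower genes then numbered 4 in complex I, 0 in complex II, 3 in complex IV and 2 in complex V. Called genes over the whole array numbered 2633, in place of 4291. Bright genes lost calls too: Ndufs6 kept its fold change (0.45 and 0.46) while its limma adjusted p rose from 0.000664 to 0.0548. That of Atp5o fell from 0.0444 to 0.0295. This fit also takes in the dim values set to the floor, so a lost call does not show that a change rested on background. With normexp correction 11 genes were lower, of which 4 were in complex I, 0 in complex II and 3 in complex IV. When all probes of a gene were averaged 0 were lower in complex II and 3 in complex IV. Sdhd, Cox5a and Cox6c, which lost their calls there, have a single probe each, so their own values did not change. Relative to chromosome neighbours 7 genes were higher, and 5 were lower in complex I, 1 in complex II, 2 in complex III and 2 in complex V; Ndufb11 turned to 0.16 and Ndufa2 to 0.061. The cause of these changes was not tested.

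With 1 array left out, genes lower in Glis2KD ranged from 14 to 18 and genes higher from 11 to 16; lower genes ranged from 5 to 8 in complex I, 1 to 2 in complex II, 1 to 2 in complex III, 3 to 5 in complex IV and 3 to 4 in complex V. Glis2 ranged from -0.60 to -0.46. With the replicate number as a block, 20 genes were lower and 12 higher, 4130 genes were called in all, and Glis2 stayed at -0.55; the calls of Ndufa12 and Atp5o were lost. Probes near the background limit have little signal of their own, and none of the 9 genes not above it was called on the measured values.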
